A study of Mus musculus with 16 samples.

Results

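The mitochondrial ribosomal protein genes were taken as all genes whose symbol is Mrpl or Mrps followed by a number. The rule found 78 of 20622 genes, 49 named for the large subunit and 29 for the small subunit. Fragments of their mRNAs protected by ribosomes (RPFs) and their RNA in whole cytoplasmic extracts (total RNA) were compared between KM_4A2cr and KM_NTC cells. Both were made from 1 parental line of lung tumour cells, grown from 1 male mouse at clinical endpoint. This mouse carried KrasLSL-G12D/WT and Rosa26LSL-MYC/LSL-MYC, and its tumours were started by an adenovirus that drives Cre from the SPC promoter (Ad5-SPC-CRE). Both lines share these alleles and were untreated. KM_NTC cells carry a non-targeting CRISPR guide. KM_4A2cr cells carry a guide against the coding region of Eif4a2, an RNA helicase of the eIF4A family, and are a pool of clones that lacked eIF4A2 on western blots, so the comparison rests on 1 such pool and 1 control line. Each line gave 4 RPF and 4 total RNA libraries, 16 in all, from independent experiments on different days, and the RPFs and total RNA of a replicate came from the same lysate.

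The mitochondrial ribosome translates the few mRNAs of the mitochondrial genome, which encode core subunits of the respiratory chain and of ATP synthase. All of its proteins are encoded in the nucleus, translated by cytosolic ribosomes and imported into the organelle, so that RPFs on their mRNAs report cytosolic translation. The large subunit forms the peptide bond and the small subunit holds the mRNA for decoding. Some of these proteins have counterparts in bacterial ribosomes, whereas others exist only in mitochondria.

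RPF libraries held 4512403 to 9621848 counts and total RNA libraries 5350920 to 9312624, and the 78 members took 0.211 to 0.344% of the RPF counts and 0.239 to 0.309% of the total RNA counts. Eif4a2 itself had RPF levels of 97.7, 122, 99.9 and 389 CPM (counts scaled to library size times edgeR's TMM factor) in KM_NTC replicates 1 to 4 and of 51.0, 88.4, 74.8 and 346 in KM_4A2cr. It was lower in KM_4A2cr within every pair, while replicate 4 stood above the other replicates in both lines and the groups overlapped. Its RPF log2 fold change was -0.49 (SE 0.15, Benjamini-Hochberg adjusted p = 0.0941, edgeR quasi-likelihood test), and its total RNA differed by -0.18 (adjusted p = 0.504). These counts do not show the reading frame that the edit leaves. All 6 epithelial markers were expressed, with summed levels of 4250 to 5067 TPM (a measure of mRNA abundance per transcript length) in KM_NTC and 4194 to 6083 in KM_4A2cr. Of 7 alveolar type II markers, Sftpb and Sftpc were listed at 0 in both lines and Nkx2-1 and Sftpa1 at 0 in KM_4A2cr. The summed level of the 7 was 29.4 to 35.6 TPM in KM_NTC and 37.2 to 49.0 in KM_4A2cr. Only 2 of them had a mean above 1 TPM in KM_NTC and only 1 in KM_4A2cr, so these sums rest on few genes. The 4 fibroblast markers summed to at most 0.09 TPM and the 3 endothelial markers to at most 1.94. For 4 immune markers, of which Cd3e and Lyz2 were listed at 0, the sums were 33.2 to 220 TPM in KM_NTC and 37.5 to 154 in KM_4A2cr. In each line only 1 of these 4 had a mean above 1 TPM, so the sum is nearly that of 1 gene. The part of these marker differences in the results below was not tested.

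The members were expressed over a wide range. In KM_NTC total RNA, their levels ran from 9.02 to 358 TPM, a 39.65-fold span, with a median of 42.9 TPM (43.6 for the large and 38.5 for the small subunit). In KM_4A2cr the span was 7.83 to 317 TPM and the median 37.8 TPM. TPM is scaled to transcript length, so these levels can be set beside each other between genes. The 3 most abundant mRNAs were all of the large subunit. Mrpl33, a small protein with a bacterial counterpart, stood at 358 ± 30.7 TPM (SD, n = 4) in KM_NTC and 299 ± 53.2 in KM_4A2cr. Mrpl52, specific to mitochondria, stood at 327 ± 27.4 and 317 ± 53.3 TPM, and Mrpl42, also specific to mitochondria, at 325 ± 83.8 and 286 ± 64.7 TPM. The levels of these 3 genes did not differ beyond their spread. The lowest were Mrps25 with 9.02 ± 2.50 TPM in KM_NTC and 7.83 ± 1.94 in KM_4A2cr, Mrpl48 with 10.7 ± 2.70 and 9.20 ± 2.84, and Mrpl19 with 12.7 ± 3.32 and 10.6 ± 2.61, which also lay within their spread of each other.

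Nearly all members carried enough footprints to be tested. In RPFs 77 of the 78 passed edgeR's filter on low counts, as did all 78 in total RNA, and 77 entered the model of translational efficiency. The exception in RPFs was Mrps33, a mitochondria-specific protein of the small subunit. Its total RNA was 48.8, 46.3, 57.5 and 50.2 CPM in KM_NTC and 42.0, 50.0, 50.0 and 44.7 CPM in KM_4A2cr, and its mRNA level was 146 ± 18.9 TPM in KM_NTC. Only 31 RPF counts were assigned to it over the 4 KM_NTC libraries and 11 over the 4 KM_4A2cr libraries. Its RPF and total RNA values therefore stood far apart, and no RPF fold change was computed for it. The authors aligned RPFs to 1 isoform per gene, and the one used for Mrps33 held 48.8% of the gene's TPM over the 8 total RNA libraries.

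Translation of the members was then compared between the lines through their RPFs, which were scaled within the 8 RPF libraries so that a fold change is relative to the other genes and not to the amount of footprints in a cell. In bulk libraries, fewer cells that express a gene and less of it per cell cannot be told apart. Most members lay on the lower side in KM_4A2cr. The log2 fold change was below 0 for 63 of 77 members, against 51.1% of all 10291 genes tested, and its median was -0.17 for the members and -0.01 for all genes. The members' quartiles were -0.29 and -0.03, against -0.21 and 0.23 for all genes, so they lay lower and closer together. A narrow spread was not particular to the members. The quartiles were -0.17 and 0.07 for nuclear-encoded subunits of the respiratory chain and ATP synthase, and -0.04 and 0.12 for ribosomal proteins of the cytosol. In 25 members KM_4A2cr was below KM_NTC in all 4 pairs, where 16% of all genes were. In 3 it was above in all 4, where 14.1% of all genes were.

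Few of these differences passed the test on their own. At an adjusted p under 0.1, 5 members fell in KM_4A2cr by edgeR, where 3.72% of all genes tested did, and 0 rose, where 6.6% of all genes did. At an unadjusted p under 0.05, 12 members were lower (10.2% of all genes) and 0 were higher (13.2%). DESeq2 also called 5 members lower (2.79% of all genes) and 0 higher, with Mrpl3 in place of Mrps27. Scaled by library size alone, 13 members were called lower and 0 higher, but the split of all genes also turned, from 679 higher and 383 lower to 482 higher and 1137 lower. The count of 5 depends on the replicates: without replicate 4, 21 members were called lower and 0 higher, when 14.3% and 19.1% of all genes tested were. Without replicate 1, 2 or 3 no member was called, when 0.733, 0.282 and 0.029% of all genes were called lower. In these fits 8, 6 and 7 members were lower at an unadjusted p under 0.05. The count of 5 also needs the pairing, since without the replicate block edgeR called 0 members (3 lower at an unadjusted p under 0.05) and 0 genes of the whole table.

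**Figure D1:**
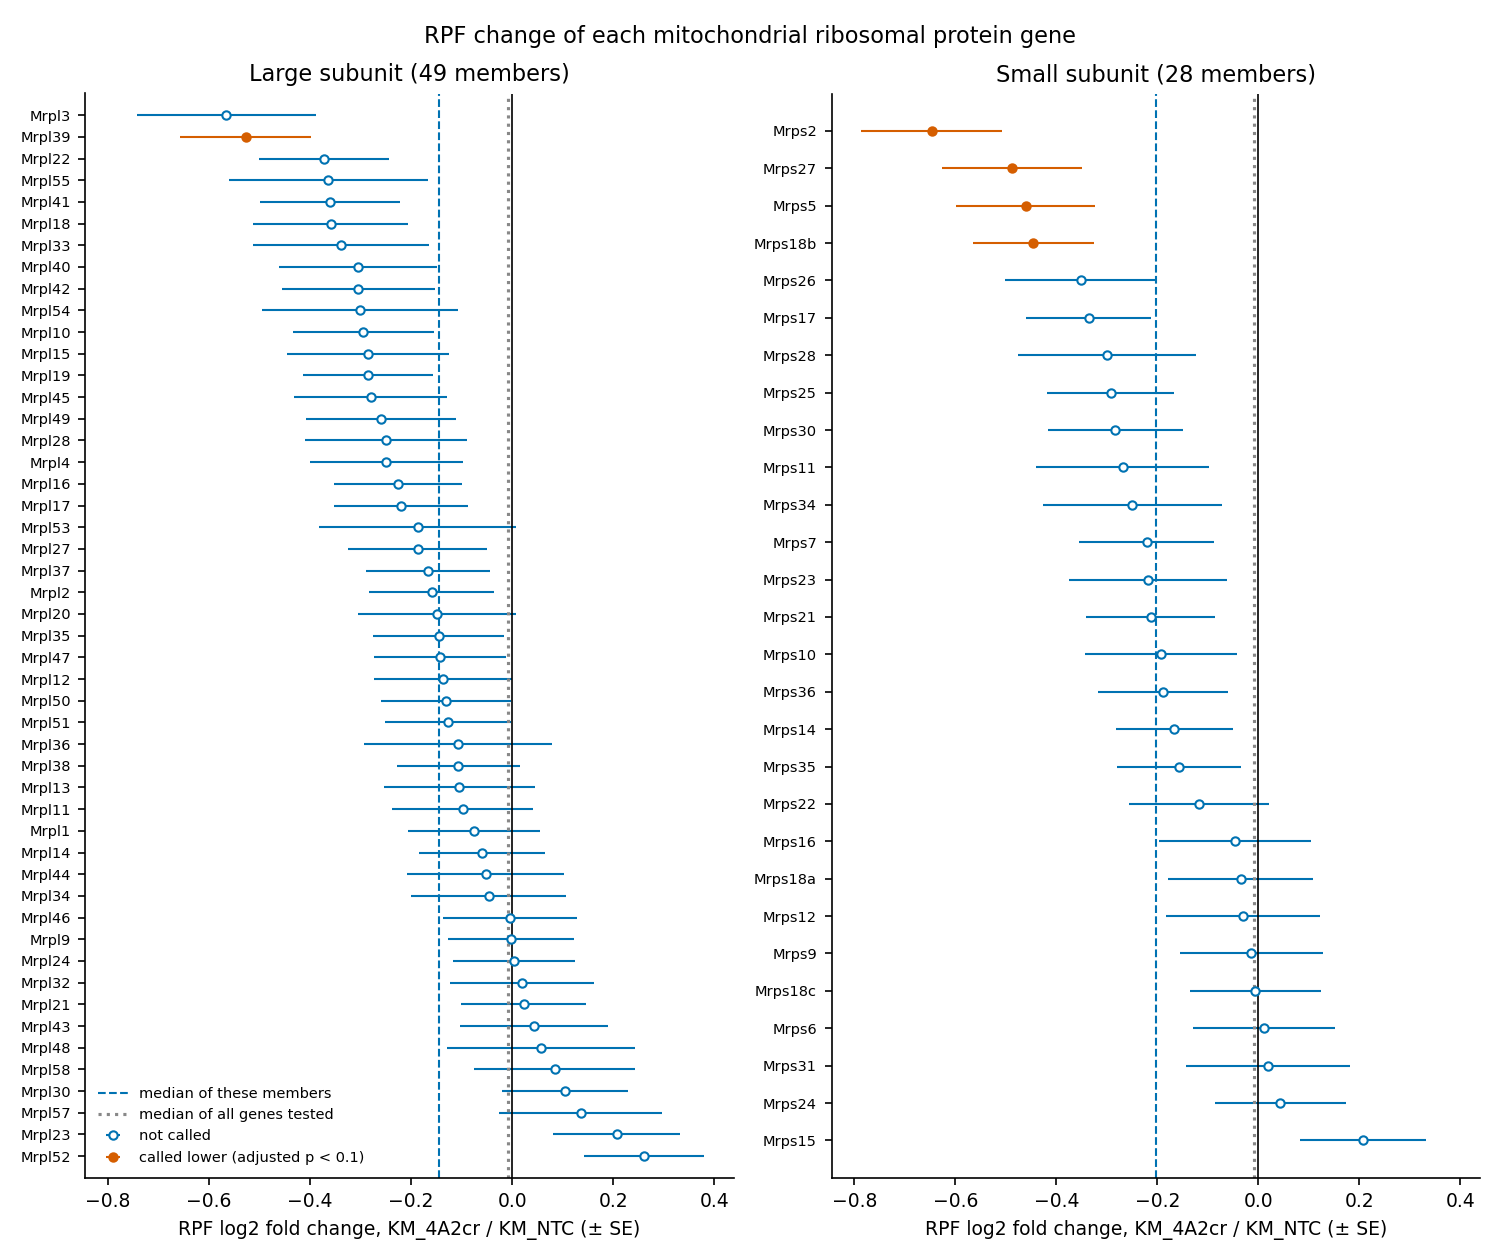
RPF log2 fold change of KM_4A2cr over KM_NTC for the 77 members tested, in order of size, with large subunit members on the left and small subunit members on the right. Bars are the SE of edgeR's fit over 4 pairs, filled points passed an adjusted p of 0.1, and the dashed and dotted lines are the medians of the members shown (-0.15 and -0.20) and of all genes tested (-0.01).

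The members were also summed in each library. Summed RPF levels of the 78 members were 2686, 2792, 2842 and 2593 CPM in KM_NTC replicates 1 to 4 and 2333, 2481, 2468 and 2560 CPM in KM_4A2cr. On this scale all 4 KM_4A2cr libraries lay below all 4 KM_NTC libraries, with means of 2728 ± 111 and 2460 ± 94.3 CPM (SD, n = 4). As shares of the library's RPF counts, without TMM factors, the members took 0.308, 0.344, 0.286 and 0.217% in KM_NTC and 0.227, 0.277, 0.230 and 0.211% in KM_4A2cr, lower in every pair but with groups that overlapped. Within pairs the ratio of the summed CPM of KM_4A2cr to KM_NTC was 0.869, 0.889, 0.868 and 0.987, so replicate pair 4 differed least. In total RNA the sums were 2832, 2586, 2866 and 2750 CPM in KM_NTC and 2581, 2410, 2628 and 2944 CPM in KM_4A2cr. These groups overlapped, and the ratio was 0.911, 0.932, 0.917 and 1.07 in pairs 1 to 4. The direction of pair 4 rests on the scale, since by library size alone the total RNA ratios were 0.824, 0.850, 0.828 and 0.928.

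**Figure D2:**
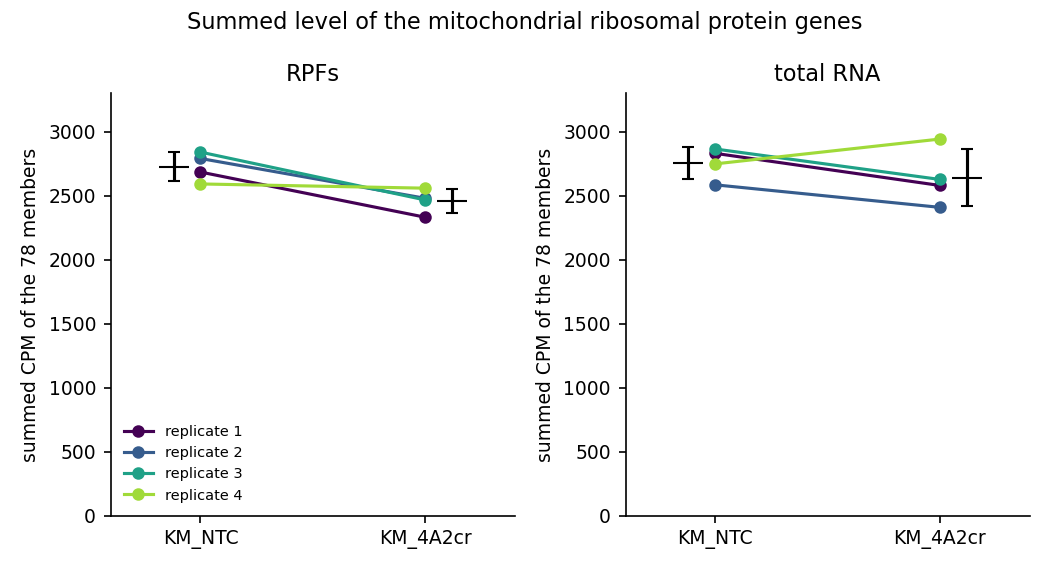
Summed CPM of the 78 members in each library, with RPFs on the left and total RNA on the right. Lines join the 2 lines of a replicate, and the black marks are the mean and SD over 4 libraries. The 4 KM_4A2cr RPF libraries (2333 to 2560 CPM) lie below the 4 KM_NTC libraries (2593 to 2842 CPM), while in total RNA the groups overlap and replicate 4 runs the other way. Both features rest on TMM: by library size alone the RPF groups overlap, and in total RNA every pair runs down.

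In the small subunit, edgeR called 4 members lower in RPFs. Mrps2 (ENSMUSG00000035772.12, chromosome 2), the counterpart of bacterial S2, had RPF levels of 30.1, 17.0, 17.1 and 13.4 CPM in KM_NTC replicates 1 to 4 and of 21.6, 10.3, 10.7 and 7.81 CPM in KM_4A2cr. Replicate 1 was the highest in both lines and the groups overlapped, but each KM_4A2cr library was below its partner. The log2 fold change was -0.65 (SE 0.14, edgeR adjusted p = 0.0370), or 0.639 of the KM_NTC level. Its total RNA was 37.0, 24.5, 21.9 and 23.2 CPM in KM_NTC and 29.9, 21.0, 18.2 and 12.5 CPM in KM_4A2cr. It was again lower in all 4 pairs, and the difference of -0.40 (SE 0.15) did not pass the test (edgeR adjusted p = 0.188).

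Mrps5 (ENSMUSG00000027374.13, chromosome 2), the counterpart of bacterial S5, was called both in RPFs and in total RNA. Its RPFs were 77.8, 89.4, 73.0 and 81.2 CPM in KM_NTC and 63.9, 63.6, 60.9 and 45.5 CPM in KM_4A2cr. The groups did not overlap, and replicate 4 was the lowest KM_4A2cr library. The RPF log2 fold change was -0.46 (SE 0.14, edgeR adjusted p = 0.0941). In total RNA its levels were 50.1, 52.8, 47.5 and 43.3 CPM in KM_NTC and 35.0, 40.3, 35.8 and 24.7 CPM in KM_4A2cr. Here too the groups did not overlap, with a log2 fold change of -0.52 (SE 0.13, edgeR adjusted p = 0.0595). The change in RPFs relative to total RNA was 0.06 (SE 0.11, edgeR adjusted p = 0.848).

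Mrps18b (ENSMUSG00000024436.17, chromosome 17) is 1 of the mammalian versions of bacterial S18. It had RPF levels of 74.0, 65.9, 66.2 and 63.8 CPM in KM_NTC and of 60.3, 46.9, 46.9 and 45.0 CPM in KM_4A2cr. The groups did not overlap, although KM_4A2cr replicate 1 stood above the other replicates of its line. The RPF log2 fold change was -0.45 (SE 0.12, edgeR adjusted p = 0.0717). Its total RNA was 25.3, 21.6, 24.2 and 23.6 CPM in KM_NTC and 28.9, 16.8, 22.3 and 25.1 CPM in KM_4A2cr, higher in 2 pairs and lower in the other 2. The total RNA log2 fold change was -0.05 (SE 0.14, edgeR adjusted p = 0.896), and the change in RPFs relative to total RNA was -0.39 (SE 0.13), which did not pass the test (edgeR adjusted p = 0.131).

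Mrps27 (ENSMUSG00000041632.8, chromosome 13) is a pentatricopeptide repeat protein that is specific to mitochondria. Its RPFs were 27.7, 29.0, 24.2 and 11.3 CPM in KM_NTC and 17.0, 21.4, 17.3 and 9.69 CPM in KM_4A2cr. Replicate 4 was the lowest in both lines, which made the groups overlap, and every pair was lower in KM_4A2cr. The log2 fold change was -0.49 (SE 0.14, edgeR adjusted p = 0.0822), a call that DESeq2 did not make (adjusted p = 0.171). Total RNA gave 17.3, 15.4, 13.9 and 7.28 CPM in KM_NTC and 9.65, 14.1, 11.0 and 5.99 CPM in KM_4A2cr, a log2 fold change of -0.40 (SE 0.17, edgeR adjusted p = 0.249).

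In the large subunit edgeR called 1 member lower in RPFs, and DESeq2 also called Mrpl3. Mrpl39 (ENSMUSG00000022889.8, chromosome 16), which is specific to mitochondria, had RPF levels of 87.6, 91.5, 84.2 and 57.7 CPM in KM_NTC and of 55.2, 65.7, 51.9 and 48.7 CPM in KM_4A2cr. KM_NTC replicate 4 was low and fell among the KM_4A2cr libraries, while all 4 pairs were lower in KM_4A2cr. The RPF log2 fold change was -0.53 (SE 0.13, edgeR adjusted p = 0.0578). Its total RNA was 65.6, 68.9, 57.9 and 41.4 CPM in KM_NTC and 45.8, 47.7, 43.9 and 38.5 CPM in KM_4A2cr, with a log2 fold change of -0.40 (SE 0.13, edgeR adjusted p = 0.132). The difference between these changes was -0.13 (SE 0.11, edgeR adjusted p = 0.649).

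Mrpl3 (ENSMUSG00000032563.17, chromosome 9), the counterpart of bacterial L3 near the peptidyl transferase centre, was the 1 member called in translational efficiency, here the change in RPFs relative to the change in total RNA. Its RPFs were 76.7, 85.1, 104 and 53.5 CPM in KM_NTC and 62.0, 75.5, 65.5 and 22.6 CPM in KM_4A2cr. Its total RNA was 84.3, 75.7, 86.4 and 50.6 CPM in KM_NTC and 77.0, 87.0, 89.8 and 23.5 CPM in KM_4A2cr. RPFs were lower in KM_4A2cr in all 4 pairs, whereas total RNA was lower in pairs 1 and 4 and higher in pairs 2 and 3, and both kinds of library were lowest in KM_4A2cr replicate 4. The log2 fold change was -0.57 in RPFs (SE 0.18, edgeR adjusted p = 0.103, DESeq2 adjusted p = 0.0572) and -0.20 in total RNA (SE 0.19, edgeR adjusted p = 0.621). Of 11 alternative RPF fits, 6 called it lower. Translational efficiency changed by -0.38 (SE 0.11, edgeR adjusted p = 0.0946). The call was not made by DESeq2 (adjusted p = 0.229), nor with total RNA counts of the aligned isoform alone (edgeR adjusted p = 0.140), which held 53.2% of the gene's TPM.

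**Figure D3:**
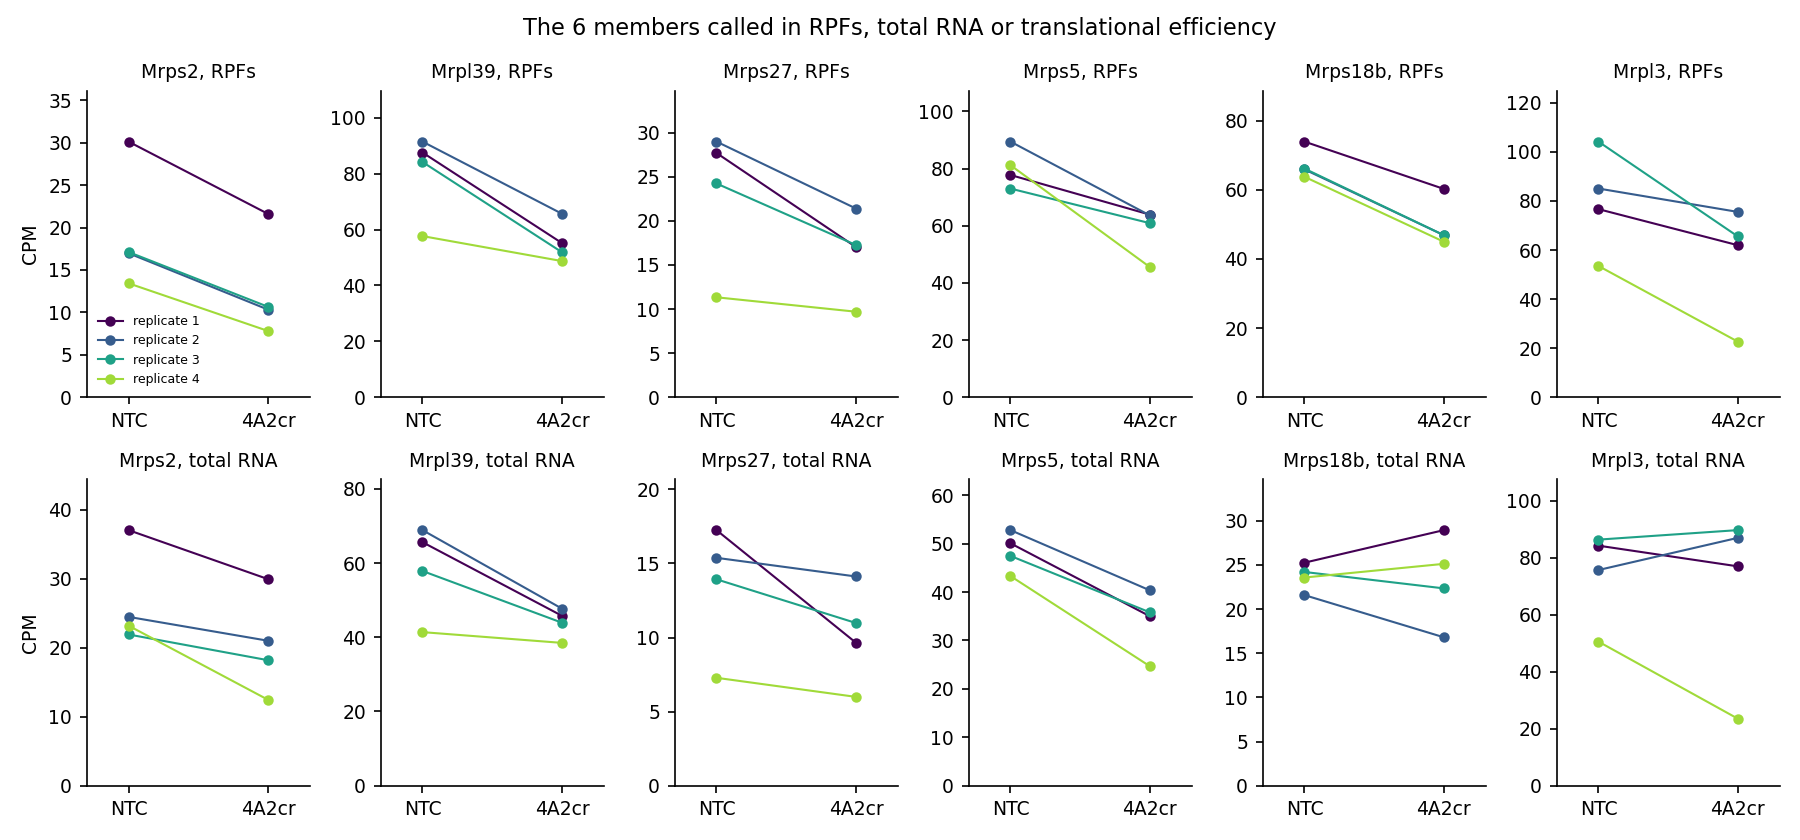
CPM of the 6 called members in each library, with RPFs in the upper row and total RNA in the lower row. Lines join KM_NTC and KM_4A2cr of the same replicate and every axis starts at 0. All RPF lines run down, as do the total RNA lines of Mrps2, Mrpl39, Mrps27 and Mrps5, while those of Mrps18b and Mrpl3 run both ways.

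Separation of the groups was counted on the TMM scale and depended on it. In RPFs all 4 KM_4A2cr libraries lay below all 4 KM_NTC libraries for 5 members, where 1.15% of all genes tested did so, and they lay above for 0 members (0.981% of all genes). By library size alone the count was 2, Mrps23 and Mrps36, where 0.962% of all genes were lower in this way, and none of the 5 was among them. Beside Mrps5 and Mrps18b the 5 were Mrpl37, Mrps14 and Mrps17, which like Mrps23 are named here after their values were seen. Mrpl37, specific to mitochondria, varied little within each line, with 27.3, 27.9, 27.0 and 28.5 CPM in KM_NTC and 23.9, 24.7, 25.8 and 24.0 CPM in KM_4A2cr. Its log2 fold change was -0.17 (SE 0.12, edgeR adjusted p = 0.456). Mrps14 and Mrps17, both with bacterial counterparts, had log2 fold changes of -0.17 and -0.34 (edgeR adjusted p = 0.425 and 0.147), and the isoform to which the RPFs of Mrps17 were aligned held 17.9% of that gene's TPM. In total RNA 1 member had groups that did not overlap, Mrps5, where 1.03% of all genes were lower in this way, and 0 members were higher (0.938% of all genes). By library size alone this 1 member was Mrpl38 instead, where 1.78% of all genes were lower in this way. Mrpl38 is also named after its values were seen.

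With all 4 replicates no member was called higher in RPFs, total RNA or translational efficiency. The 3 members with the highest RPF fold change in the same direction in all 4 pairs were Mrpl52, Mrps15 and Mrpl23. Mrpl52 had RPFs of 76.2, 104, 109 and 142 CPM in KM_NTC and 85.6, 125, 128 and 186 CPM in KM_4A2cr, a log2 fold change of 0.26 (SE 0.12, edgeR adjusted p = 0.222). Replicate 4 was the highest in both lines and the groups overlapped. Mrps15 and Mrpl23, both with bacterial counterparts, stood at 0.21 each (SE 0.12 and 0.13, edgeR adjusted p = 0.354 and 0.360). In translational efficiency Mrps15 stood at 0.29 (edgeR adjusted p = 0.237), and without replicate 4 it was called higher at 0.41 (edgeR adjusted p = 0.0376).

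The 2 subunits were set side by side by the letter of the symbol. In RPFs the median log2 fold change was -0.15 for 49 large subunit members, of which 39 were below 0 and 1 was called lower. It was -0.20 for 28 small subunit members, of which 24 were below 0 and 4 were called lower. Of all genes tested 3.72% were called lower. Among the 4, Mrps2 and Mrps5 lie on chromosome 2, where 10.2% of all genes were called lower. Without replicate 3 both medians were -0.12. Without replicate 4 the counts called lower were 11 and 10, when 14.3% of all genes were. The quartiles overlapped, from -0.28 to -0.05 in the large and from -0.29 to -0.03 in the small subunit. By pair, the RPF medians were -0.18, -0.17, -0.14 and -0.02 for the large and -0.27, -0.17, -0.30 and -0.02 for the small subunit. The small subunit had the lower median in pairs 1 and 3, and the 2 subunits had nearly the same median in pairs 2 and 4. Summed RPF levels of the small subunit were 1004, 1024, 1007 and 902 CPM in KM_NTC and 862, 888, 861 and 828 CPM in KM_4A2cr, and the groups did not overlap on the TMM scale. Those of the large subunit were 1681, 1768, 1835 and 1691 CPM in KM_NTC and 1471, 1593, 1607 and 1732 CPM in KM_4A2cr, and here replicate 4 of KM_4A2cr lay among the KM_NTC libraries.

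Some symbols do not match the subunit in which structures place the protein. Mrps30 and Mrps18a sit in the large subunit of the mammalian mitochondrial ribosome, and Mrps36 is a component of the oxoglutarate dehydrogenase complex. With Mrps30 and Mrps18a moved and Mrps36 left out, the RPF medians were -0.15 for 51 large and -0.21 for 25 small subunit members, with 1 and 4 called lower as before. The RPF log2 fold changes of these 3 genes were -0.28 for Mrps30, -0.03 for Mrps18a and -0.19 for Mrps36 (edgeR adjusted p = 0.238, 0.909 and 0.415). None of the 3 was called.

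**Figure D4:**
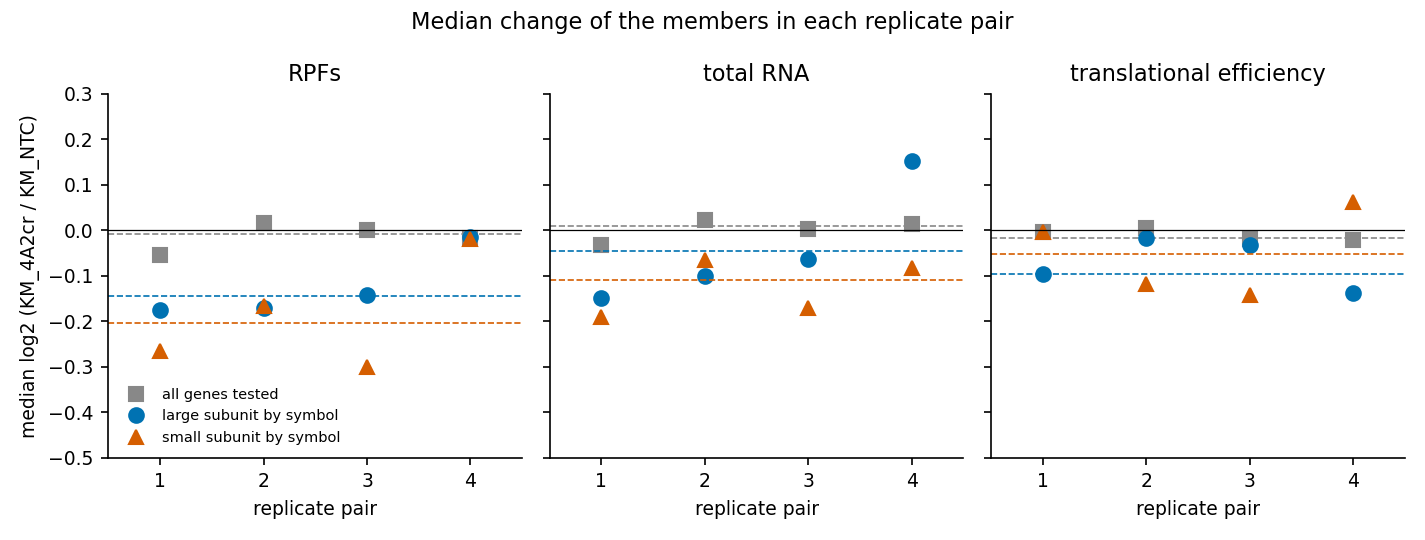
Median log2 ratio of KM_4A2cr to KM_NTC in each replicate pair for all genes tested, large subunit members and small subunit members, in RPFs, total RNA and translational efficiency. Dashed lines are the medians of the edgeR fits. In RPFs both subunits lie below all genes in pairs 1 to 3 (from -0.14 to -0.30) and meet them in pair 4 (-0.02), and in total RNA of pair 4 the large subunit lies at 0.15 and the small at -0.08, a sign that turns for the large subunit by library size alone (-0.053).

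Members were also grouped by whether bacterial ribosomes have a counterpart, from standard nomenclature. In RPFs 38 of 46 members with a counterpart were below 0, with a median of -0.15 and 2 called lower (4.35%). Of 27 mitochondria-specific members 22 were below 0, with a median of -0.19 and 2 called lower (7.41%). Among all genes tested 3.72% were called lower. The lowest median among the 4 classes was that of the 9 tested small subunit members specific to mitochondria, at -0.25, and the other 3 classes lay between -0.15 and -0.18. The remaining member called lower in RPFs by edgeR, Mrps18b, was assigned to neither class, and nor were Mrps18a, Mrps36 and Mrpl58, a peptidyl-tRNA hydrolase built into the large subunit.

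In total RNA the members again lay on the lower side. Of 78 members 56 were below 0, against 48.4% of all 10880 genes tested, and the median was -0.07, against 0.01 for all genes. Only Mrps5 was called lower and 0 members were called higher, where 1.78% and 4.35% of all genes were. At an unadjusted p under 0.05 these counts were 8 lower (7.39% of all genes) and 0 higher (10.9%), and DESeq2 called 1 lower and 0 higher. With library size alone 10 members were called lower, and all genes split into 262 higher and 868 lower, against 473 and 194. In 15 members all 4 pairs were lower, where 13% of all genes were. The median was -0.05 for the large and -0.11 for the small subunit. By pair the members' medians were -0.16, -0.10, -0.12 and 0.05, and in pair 4 the large subunit stood at 0.15 and the small at -0.08. By library size alone the members' medians were -0.30, -0.23, -0.27 and -0.15, so the sign of pair 4 rests on the scale. Without replicate 4, 9 members were called lower (12% of all genes) and 0 higher (17.8%). Without replicate 1, 2 or 3 no member was called, when 0.672, 0.352 and 0.119% of all genes were called lower. In these fits 5, 3 and 4 members were lower at an unadjusted p under 0.05.

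Translational efficiency set the 2 kinds of library against each other. Its median log2 change was -0.08 for 77 members and -0.02 for all 9989 genes tested, and 49 members were below 0, against 52.9% of all genes. Mrpl3 was called lower, where 1.04% of all genes were, and 0 members were called higher, where 1.87% were. At an unadjusted p under 0.05 there were 10 lower (6.65% of all genes) and 1 higher (7.47%), and DESeq2 called none of the 30 members to which it gave an adjusted p. The large subunit had a median of -0.10 and 33 of 49 members below 0, and the small subunit had -0.05 and 16 of 28. The order of the subunits was thus the reverse of that in RPFs, and it was not kept across pairs, since the small subunit had the lower median in pairs 2 and 3 only. Leaving out replicate 4 gave 2 members lower (2.58% of all genes) and 1 higher (4.1%), which was Mrps15. Leaving out replicate 1, 2 or 3 gave none, when 0.050, 0.080 and 0.030% of all genes were called lower. In these fits 6, 7 and 2 members were lower at an unadjusted p under 0.05.

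Across the 77 members, the RPF and total RNA log2 fold changes were related with a Pearson r of 0.43 and a Spearman rho of 0.36, and across all 9989 genes with 0.77 and 0.69. Genes are not independent replicates, and both changes come from the same 8 lysates. The members spanned -0.65 to 0.26 in RPFs and -0.52 to 0.23 in total RNA, while all genes spanned -3.52 to 4.12 in RPFs.

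**Figure D5:**
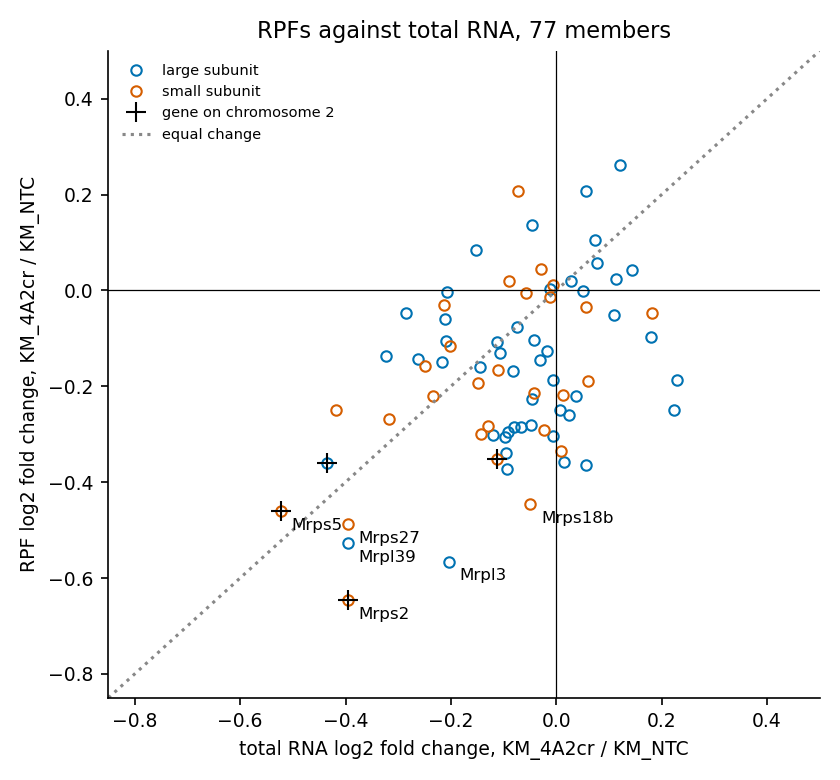
RPF log2 fold change against total RNA log2 fold change of KM_4A2cr over KM_NTC for 77 members, coloured by subunit, with crosses on the 4 genes of chromosome 2 and names on the 6 called members. Points below the dotted line had a lower fold change in RPFs than in total RNA. Mrps5 lies near that line at -0.52 and -0.46, and Mrps18b lies well below it at -0.05 and -0.45.

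Values were also taken by chromosome. In RPFs genes on chromosome 2 had a median log2 fold change of -0.21 over 833 tested genes, with 85 called lower and 22 higher, whereas the other 9458 genes had a median of 0.00437. The 4 members on chromosome 2, Mrps2, Mrps5, Mrps26 and Mrpl41, were all below 0 in RPFs, with a median of -0.41 and 2 called lower. Mrpl41, specific to mitochondria, changed in RPFs by -0.36 and in total RNA by -0.44 (edgeR adjusted p = 0.160 and 0.162). Mrps26 had -0.35 and -0.11 (edgeR adjusted p = 0.198 and 0.742). The 73 tested members on other chromosomes kept a median of -0.16 in RPFs, with 59 below 0 and 3 called lower, where 3.15% of all genes off chromosome 2 were, and in total RNA a median of -0.05 over 74 members, with 0 called (edgeR; 5 lower and 0 higher at an unadjusted p under 0.05). The copy number of chromosome 2 in the 2 lines was not measured here, and the line and such a difference cannot be told apart.

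The promoters of the members were read for sequence motifs as a description of what these genes share. RefSeq windows of GRCm38.p6 from 250 bases before to 50 after the gene's start were found for 69 of the 78 members. The ETS motif CCGGAAG was present on either strand in 26 of them (37.7%), in 22.5% of 8194 genes tested in RPFs that had a window, and in 9.93% of all 27025 genes with one. The YY1 motif AAGATGGC was in 12 (17.4%, against 5.70 and 3.19%), the NRF1 motif CGCATGCG in 7 (10.1%, against 4.75 and 2.07%), and the E-box CACGTG, the core site of MYC, in 5 (7.25%, against 12.4 and 8.09%). The ETS and YY1 motifs share the letters AAG at 1 end, so that their matches can overlap. The motifs were chosen after the values of the members were known. The following stretches hold the match of each called member that has one before its start, read 5′ to 3′ on the gene's strand, with the motif in capitals. They come from chr9:105053238-105053267 (plus strand), chr16:84735350-84735379 (minus strand), chr17:35916646-35916675 (minus strand) and chr13:99344727-99344756 (plus strand).
Mrpl3: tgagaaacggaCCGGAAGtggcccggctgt
Mrpl39: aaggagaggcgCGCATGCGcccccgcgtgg
Mrps18b: aaacggcccgaCGCATGCGcactgggagca
Mrps27: tggtaggaccaCTTCCGGcggaggcgggct
The capitals mark an ETS motif in Mrpl3, an NRF1 motif in Mrpl39 and Mrps18b and an ETS motif on the other strand in Mrps27. Mrps18b also held an ETS motif after its start, Mrps27 also held the YY1 motif, and none of the 4 motifs was found in the windows of Mrps2 and Mrps5. In RPFs the median change was -0.13 on the log2 scale for members with the ETS motif (25 tested) and -0.16 for members without it (43 tested). For the NRF1 motif these were -0.29 (7 tested) and -0.15 (61 tested), for the YY1 motif -0.16 (12) and -0.15 (56), and for the E-box -0.15 (5) and -0.17 (63).

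Proteins of the mitochondrial ribosome that carry other names also lay mostly on the lower side. All 5 were below 0 in RPFs, with a median of -0.10, and 0 were called by edgeR or DESeq2 (1 lower and 0 higher at an unadjusted edgeR p under 0.05). Ptcd3, a pentatricopeptide repeat protein of the small subunit, had RPFs of 120, 116, 101 and 48.5 CPM in KM_NTC and 105, 88.4, 71.3 and 33.7 CPM in KM_4A2cr. It was lower in all 4 pairs, with replicate 4 lowest in both lines, and its log2 fold change of -0.40 (SE 0.12) narrowly missed the threshold (edgeR adjusted p = 0.104). Gadd45gip1 of the large subunit stood at -0.24, Chchd1 at -0.10, Aurkaip1 at -0.01 and Dap3, a GTP-binding protein of the small subunit, at -0.0033. Aurkaip1 lay close to the median of all genes tested (-0.0090), and Dap3 lay above it.

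The genes that build and serve the mitochondrial ribosome were given by lists. Of 25 tested genes for its assembly and rRNA modification 21 were below 0 in RPFs, with a median of -0.22. Of 15 translation factors 10 were below 0, with a median of -0.16, and of 6 genes for mitochondrial transcription 6 were, with a median of -0.22. In RPFs edgeR and DESeq2 called none of these genes. At an unadjusted edgeR p under 0.05, 3 assembly genes and 1 transcription gene were lower, 0 translation factors were, and none of the 3 lists held a gene that was higher. In total RNA the medians were -0.10, -0.14 and -0.12, again with none called by edgeR or DESeq2 and 2, 0 and 0 genes lower at an unadjusted edgeR p under 0.05.

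Ribosomal proteins of the cytosol lay mostly above 0. In RPFs 25 of 79 were below 0, with a median of 0.06, and 0 were called (edgeR and DESeq2; 1 lower and 5 higher at an unadjusted edgeR p under 0.05). In total RNA their median was 0.23, and in translational efficiency it was -0.16, with 73 of 79 below 0 and 6 called lower, where 1.04% of all genes were. By pair these medians of translational efficiency were -0.031, 0.010, -0.15 and -0.50, lowest in pair 4. Their summed total RNA was 1.69 times as high in KM_4A2cr as in KM_NTC in pair 4 and 0.918 to 1.08 times in pairs 1 to 3. Nuclear-encoded subunits of the respiratory chain and ATP synthase had an RPF median of -0.04, with 48 of 79 below 0. In RPFs edgeR called 2 lower (3.72% of all genes) and 0 higher (6.6%), with 6 lower and 4 higher at an unadjusted p under 0.05. DESeq2 called 1 lower (2.79% of all genes) and 0 higher. In translational efficiency 52 of 78 of these subunits were below 0, with a median of -0.08, near that of the members. By edgeR 1 was called lower, where 1.04% of all genes were, and 0 higher (10 lower and 1 higher at an unadjusted p under 0.05). The difference between these lists and the members was not tested.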

How the data were processed

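Ribosome footprints (RPFs) and total RNA of cytoplasmic lysates were sequenced from KM_NTC and KM_4A2cr cells, with 4 libraries of each kind per line. The authors deposited RPF counts per transcript, summed over the coding sequence without its ends, after alignment to 1 isoform per gene and collapsing of duplicates by UMI (UMI-tools 1.0.1). For total RNA, the authors deposited RSEM 1.3.3 expected counts and TPM per isoform after Bowtie2 alignment. Expected counts were summed per gene and rounded. A gene absent from an RPF table was taken as 0.

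Genes were filtered with filterByExpr, scaled by TMM within each kind of library and tested with edgeR 4.0.16 (glmQLFit, glmQLFTest; R 4.3.3; limma 3.58.1), with line and replicate as terms and Benjamini-Hochberg adjustment over all genes tested at 0.1. DESeq2 1.42.0 was an alternative. Translational efficiency was the interaction of line and kind of library in 1 model of 16 libraries that also held lysate and replicate within kind as terms. The replicate number was taken to pair the lines. The series' design text describes replicates as experiments on different days without saying that the lines shared a day, so the pairing is an assumption. Same-numbered libraries of both lines deviated from their group means together (correlations of 0.575 to 0.782 in RPFs and 0.611 to 0.756 in total RNA). Libraries with different numbers were not compared in this way. Replicate 4 stood apart in both lines, for example in Eif4a2, so these correlations cannot show that the other replicates were paired. Pair values are differences of log2 CPM with a prior count of 2.

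Members and gene lists were chosen with earlier results of these data known, so no list was tested as a set. The rule for named genes took Eif4a2, every called member, the 3 largest rises and falls in RPFs that held in all 4 pairs, the 3 members highest and the 3 lowest in TPM, Mrps30, Mrps18a, Mrps36, the members on chromosome 2, the 5 ribosomal proteins with other names and the member that missed the filter. The text names 5 more members, and says so, after their values were seen. Mrpl58 is also named outside the rule, as a member assigned to neither class by bacterial counterpart. Symbols were found for 20586 of 20622 genes, and chromosomes came from RefSeq by symbol. The build of the files was not used. Of the related lists, 1 gene was not matched. P-values measure the spread between experiments on 1 pool and 1 control line.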

Additional observations from a re-analysis of the deposited data

Results flagged for a closer look

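Among 108 groups of 4 libraries examined for named genes, 11 held a library that stood apart from the other 3 by Dixon's ratio at the 95% level, and chance alone marks about 1 group in 20. Replicate 4 accounted for 7 of them. Eif4a2 was high in replicate 4, at 389 CPM in KM_NTC RPFs (97.7 to 122 in the other replicates), 346 CPM in KM_4A2cr RPFs (51.0 to 88.4) and 524 CPM in KM_NTC total RNA (221 to 254). In replicate 4 of KM_4A2cr RPFs, Mrpl33 was high at 87.5 CPM (52.5 to 55.8 in the others) and Mrps5 low at 45.5 CPM (60.9 to 63.9). In replicate 4 of KM_NTC total RNA, Dap3 was high at 50.4 CPM (43.5 to 44.6) and Ptcd3 low at 40.4 CPM (68.7 to 72.1).

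In replicate 1, Mrps18b was high at 60.3 CPM (45.0 to 46.9) and Mrpl48 low at 4.35 CPM (5.05 to 5.17) in KM_4A2cr RPFs, and Mrps2 was high at 37.0 CPM (21.9 to 24.5) in KM_NTC total RNA. In replicate 2, Mrpl33 was low at 46.6 CPM (61.5 to 63.8) in KM_4A2cr total RNA. Mrpl3 is listed because its change in RPFs differed from that in total RNA by -0.38 on the log2 scale, past the threshold by edgeR's quasi-likelihood test of the interaction (adjusted p = 0.0946).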

How the results depend on the processing

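The members' medians in RPFs, total RNA and translational efficiency stayed below 0 under the refits run (11 for RPFs, 12 for the other 2). Scaling by library size alone shifted all genes tested, by a median of -0.14 (RPFs) and -0.16 (total RNA), took the members' medians to -0.30 and -0.23 (large subunit -0.28 and -0.20, small subunit -0.33 and -0.27) and gave 13, 10 and 0 members lower in RPFs, total RNA and translational efficiency, while the members' distance from all genes was -0.15 and -0.08, close to the -0.16 and -0.08 of TMM. Of all genes tested, 11.05, 7.98 and 0.28% were called lower by library size alone. Without the replicate block, 0, 0 and 0 members were lower. An adjusted p of 0.05 left 1, 0 and 0. DESeq2 and the aligned isoform alone gave 0 in translational efficiency. With no filter on low counts 3 members were lower in total RNA, where 2.7% of all genes were. Leaving out the members on chromosome 2, an alternative chosen after seeing the data, left 3 in RPFs and 0 in total RNA. Leaving out each replicate in turn gave 0 to 21 members lower in RPFs, 0 to 9 in total RNA and 0 to 2 in translational efficiency, and 0 to 1 higher in the last. In these fits 0.029 to 14.3% of all genes were called lower in RPFs, 0.119 to 12% in total RNA and 0.030 to 2.58% in translational efficiency. The high counts and shares are those without replicate 4. Without replicate 4 the RPF counts by subunit were 11 large and 10 small, against 1 and 4. No other count of called members as a whole moved by over 1.5 times, and no other median of the members or subunits moved by more than its SD over pairs.

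Some uncalled changes of named members took the other sign. With library size alone this held in total RNA for Mrpl23 (-0.10), Mrpl48 (-0.079), Mrpl52 (-0.036), Mrps18a (-0.098) and Mrps36 (-0.096), and in RPFs for Mrpl48 (-0.078). Mrpl48 did so with the aligned isoform in total RNA (-0.22) and without the block in translational efficiency (-0.091). Over the fits without 1 replicate, the ranges that crossed 0 were, in RPFs, Mrps18a (-0.086 to 0.079), in total RNA, Mrps18b (-0.14 to 0.059), Mrpl3 (-0.36 to 0.037), Mrpl23 (-0.041 to 0.14), Mrpl52 (-0.032 to 0.21), Mrps25 (-0.16 to 0.073), Mrpl48 (-0.14 to 0.26), Mrpl19 (-0.18 to 0.011) and Mrpl42 (-0.10 to 0.079), in translational efficiency, Mrps27 (-0.19 to 0.013), Mrpl48 (-0.21 to 0.27) and Mrps18a (-0.12 to 0.027). The cause of these shifts was not tested. Footprints per mRNA between genes were not run, since coding lengths were not in the tables used here. Genes with few footprints, such as Mrpl48 with 154 RPF counts in KM_NTC and 133 in KM_4A2cr, limit the precision of single folds.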
